A study of Mus musculus with 6 samples.

Results

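Integrin genes were examined in mouse lymphocytes that the series text describes as ILC1s, group 1 innate lymphoid cells, which are tissue lymphocytes related to natural killer (NK) cells. The 10 genes were fixed by name: the α chain genes Itga1, Itga2, Itga4, Itgae, Itgal and Itgam and the β chain genes Itgb1, Itgb2, Itgb3 and Itgb7. All 10 had a row among the 24628 genes measured, and all 10 were among the 12731 genes tested, those that reached 1 RPKM or more in 3 or more of the 6 libraries. RPKM is a read number divided by gene length and by library depth, so it allows a rough comparison between genes. The length counts all annotated exon bases of a gene, for example 13978 for Itga4 and 2743 for Itgb7. Levels, shares and ratios between genes therefore depend on that annotation.

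RNA-seq was done on 3 libraries titled treatment and 3 titled Rorafl/fl. The series text names conditional knockout (cKO) and wild-type ILC1s, so the treatment libraries are the cKO group by elimination, and their columns join the names Ncr1 and Rora. The Rorafl/fl libraries, called floxed below, are the comparison group, with columns named for Rora alone. Rora encodes the nuclear receptor RORα. The Cre line, the sort gate, the age and sex of the mice and the number of animals per library were not stated in the labels, and p-values therefore cover the spread among these libraries only, which may be technical. Depth was 21111333 to 22440170 reads assigned to genes in cKO libraries and 20152146 to 21711523 in floxed libraries, and each integrin rested on 342 to 24167 reads per library.

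The receptor genes Ncr1 (NKp46) and Klrb1c (NK1.1), which define the lineage, were at 246 ± 12.5 and 99.4 ± 4.01 RPKM in cKO libraries and at 372 ± 10.8 and 103 ± 5.09 RPKM in floxed libraries (SD, n = 3 each). Ncr1 was called lower (log2 difference -0.60, limma adjusted p = 0.00446), and Klrb1c did not pass (limma adjusted p = 0.745). Rora was at 6.07 ± 0.334 RPKM in cKO and 7.42 ± 0.493 RPKM in floxed libraries (limma, adjusted p = 0.242), and whole-gene RPKM keeps exons outside a deleted part, so it is no check of the deletion. Markers of conventional NK cells summed to 725 to 743 RPKM in cKO and 525 to 540 RPKM in floxed libraries over 15 genes, and markers of ILC1s to 517 to 528 RPKM in cKO and 590 to 622 RPKM in floxed libraries over 12 genes, neither list holding an integrin. Limma called 6 of the 15 higher and 0 lower, and 3 lay below 0. Of the 12, it called 3 lower and 1 higher, against 0.668% and 0.652% of all tested genes. The 1 higher was Cd69, at 32.8 ± 0.437 RPKM in cKO and 21.4 ± 1.11 RPKM in floxed libraries. Much of the ILC1 sum came from Il18r1 (192 RPKM in cKO, 236 RPKM in floxed) and Il7r (190 and 228 RPKM). In the same cKO libraries 10 of 11 immediate-early and stress genes rose (6 without cKO replicate 2), against 0.652% of all tested genes. Xist fell (log2 difference -1.65), with 9.43 ± 0.394 RPKM in cKO and 31.9 ± 3.16 RPKM in floxed libraries. The Y-linked Ddx3y rose (0.93), with 20.8 ± 0.438 RPKM in cKO and 10.4 ± 0.498 RPKM in floxed libraries. The Y-linked Eif2s3y and Kdm5d also rose (0.89 and 0.76). Every library thus carried both Xist and Y-linked RNA, and the sex make-up of the groups may differ. Genotype and sex make-up were not separated in the comparison. The part of these differences in the integrin results was not tested. In bulk RNA, fewer cells of a type and less RNA per cell cannot be told apart.

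Integrins are receptors made of one α and one β chain that bind cells and extracellular matrix, and chain pairing sets the ligand. The β2 chain pairs with the leukocyte α chains αL (LFA-1, which binds ICAMs) and αM (Mac-1, which binds ICAM-1 and complement iC3b). The β1 chain pairs with α1 (CD49a) and α2 (CD49b), both collagen receptors, and with α4 (CD49d), which binds VCAM-1 and fibronectin. The β7 chain pairs with α4, which then binds MAdCAM-1 of gut vessels, and with αE (CD103), which binds E-cadherin. The β3 chain pairs with αv, a receptor for vitronectin and other RGD-containing ligands, and in platelets with αIIb. In mice CD49a marks many tissue ILC1s, and CD49b marks conventional NK cells.

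The clearest difference was in the β3 chain. Itgb3 fell in the cKO libraries to 57.2% of its floxed mean. The more abundant β chain genes Itgb1, Itgb2 and Itgb7 were at 105%, 95.1% and 81.6% of theirs. Among the 10 integrins, 1 fell, 0 rose and 9 did not pass limma's test at a Benjamini-Hochberg adjusted p under 0.05, against 0.668% of all tested genes that fell and 1.32% called in either direction. Two-sided tests on log2(RPKM + 1) are given throughout, as cKO minus floxed, a scale that understates the change of low genes.

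Itgb3 (chromosome 11, 104608000 to 104670476, plus strand, mm10) was at 14.6, 15.3 and 15.0 RPKM in the cKO libraries, against 26.0, 25.7 and 26.8 RPKM in the floxed libraries. All 3 cKO values lay far below all 3 floxed values, and the gap between the groups was many times the spread within either. The group means were 15.0 ± 0.356 RPKM in cKO and 26.2 ± 0.584 RPKM in floxed libraries (SD, n = 3 each). The log2 difference was -0.77 (95% confidence interval -0.88 to -0.65, SE 0.05), with limma's adjusted p = 0.00165. It ranked as number 14 of all tested genes by p and number 22 of the 85 genes that fell by size of decrease. The call held in all 14 alternative fits, the difference lying between -0.80 and -0.72.

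The value of Itgb3 rested on 1912 to 1949 reads in cKO and 3052 to 3423 reads in floxed libraries, and no other gene of the table shares its exon bases. Its nearest tested neighbours did not pass: Cdc27, 57380 bases to the left, was at 7.07 ± 0.606 RPKM in cKO and 7.06 ± 0.142 RPKM in floxed libraries, and Mettl2, on the other side, at 2.68 ± 0.159 RPKM in cKO and 2.80 ± 0.177 RPKM in floxed libraries. The α chains that pair with β3 were low. Itgav, the gene of αv, was at 2.26 ± 0.103 RPKM in cKO and 2.64 ± 0.451 RPKM in floxed libraries (log2 difference -0.15, limma adjusted p = 0.660). Itga2b, the gene of αIIb, was under the filter, at 0.318 ± 0.0281 RPKM in cKO and 0.349 ± 0.119 RPKM in floxed libraries. The ratio of Itgb3 to Itgav was 6.25, 7.15 and 6.51 in cKO libraries, against 11.8, 9.89 and 8.62 in floxed libraries.

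Because β3 is abundant on platelets and is also made by macrophages, markers of these cells were read beside it. The 4 platelet and megakaryocyte markers analysed here summed to 1.48 to 2.20 RPKM in cKO and 1.15 to 1.68 RPKM in floxed libraries. The highest of them, the von Willebrand factor receptor gene Gp1ba, was at 1.24 ± 0.349 RPKM in cKO and 1.01 ± 0.342 RPKM in floxed libraries. Gp1bb was at 0.0489 ± 0.0482 RPKM in cKO and 0.0748 ± 0.0228 RPKM in floxed libraries, Gp6 at 0.242 ± 0.0556 RPKM in cKO and 0.0104 ± 0.0180 RPKM in floxed libraries, and Itga2b is given above. The sum of the 4 overlapped between the groups, with Gp1ba and Gp6 higher and Gp1bb and Itga2b lower on average in the cKO libraries. Pf4, Ppbp, Gp9 and Treml1, which also mark platelets, were not analysed here. The 12 macrophage and monocyte markers summed to 60.9 to 63.2 RPKM in cKO and 64.6 to 68.8 RPKM in floxed libraries, and limma called 0 of the 5 tested (voom 1, as lower; at unadjusted p below 0.05, 1 higher and 2 lower). Of those 5, Ccr2 was at 29.9 ± 1.24 RPKM in cKO and 27.3 ± 0.811 RPKM in floxed libraries. The other 4 lay lower on average in the cKO libraries, among them Lyz2 (lysozyme), at 20.9 ± 0.913 RPKM in cKO and 23.4 ± 1.69 RPKM in floxed libraries, and Ly6c2, at 6.04 ± 0.545 RPKM in cKO and 9.03 ± 0.555 RPKM in floxed libraries (limma adjusted p = 0.0533, voom adjusted p = 0.0162). The 7 macrophage markers under the filter averaged at most 0.817 RPKM in either group.

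Markers of dendritic cells and of B cells were lower in sum in the cKO libraries. The 9 dendritic cell markers summed to 58.6 to 66.5 RPKM in cKO and 95.3 to 104 RPKM in floxed libraries, and 2 of the 3 tested fell, the MHC class II genes Cd74 (32.0 ± 4.61 RPKM in cKO and 54.1 ± 3.93 RPKM in floxed libraries, limma adjusted p = 0.0305) and H2-Ab1 (26.8 ± 1.14 RPKM in cKO and 41.6 ± 3.06 RPKM in floxed libraries, limma adjusted p = 0.0110). The third, Zbtb46, a factor of conventional dendritic cells, did not pass, at 2.73 ± 0.258 RPKM in cKO and 2.47 ± 0.428 RPKM in floxed libraries. Most of the dendritic cell sum came from Cd74 and H2-Ab1 in both groups. The 8 B cell markers summed to 8.01 to 9.08 RPKM in cKO and 14.0 to 15.0 RPKM in floxed libraries. Of the 2 tested, Cd22, an inhibitory receptor of B cells, fell (6.49 ± 0.649 RPKM in cKO and 9.93 ± 0.285 RPKM in floxed libraries, limma adjusted p = 0.0353), and Cd79b did not pass. The 10 T cell markers summed to 80.7 to 88.2 RPKM in cKO and 86.1 to 88.1 RPKM in floxed libraries. Of the 7 tested, 1 fell, Cd3e, a chain of the T cell receptor complex (2.93 ± 0.142 RPKM in cKO and 5.35 ± 0.430 RPKM in floxed libraries, limma adjusted p = 0.0232). Voom called 2 lower, Cd3e and Cd8b1. Cd8b1, named after its value was seen, was at 0.265 ± 0.190 RPKM in cKO and 1.27 ± 0.220 RPKM in floxed libraries (limma adjusted p = 0.0976, voom adjusted p = 0.0306). The 4 limma calls, of Cd74, H2-Ab1, Cd22 and Cd3e, compare with 0.668% of all tested genes that fell. Each was lost without cKO replicate 2 and without floxed replicate 3 (adjusted p up to 0.0610 for H2-Ab1, 0.121 for Cd74, 0.139 for Cd22 and 0.105 for Cd3e over the alternatives). The calls of Cd22, Cd3e and Cd74 were also lost without cKO replicate 1 and without floxed replicate 1 or 2, and those of Cd3e and H2-Ab1 without cKO replicate 3. The part of these markers in the Itgb3 result was not tested.

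**Figure D1:**
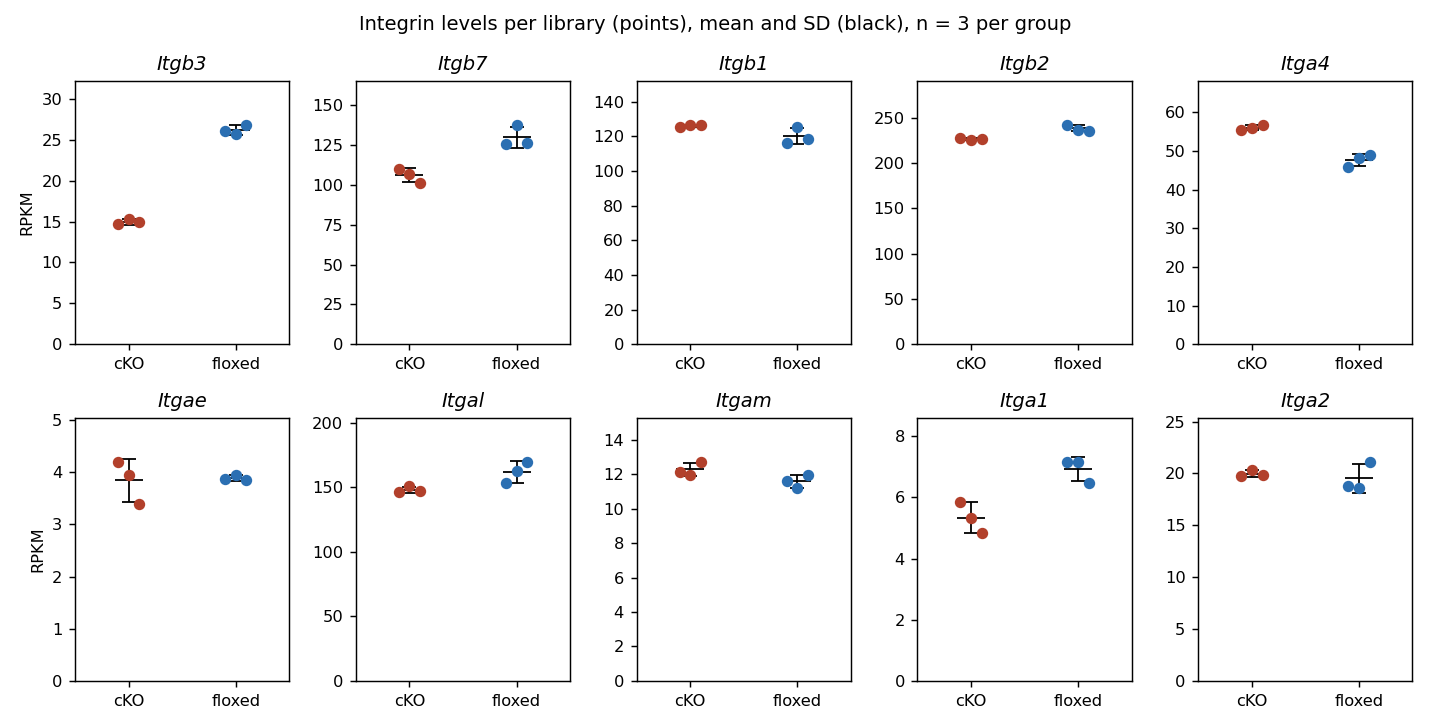
RPKM of the 10 integrin genes (y axes, from 0) in each of the 3 cKO and 3 floxed libraries (points), with mean and SD in black. Itgb3 sits at 14.6 to 15.3 RPKM in cKO libraries and at 25.7 to 26.8 RPKM in floxed libraries, and the other 9 genes differ by smaller proportions.

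Among the other β chains, Itgb7 lay lower in the cKO libraries without passing. Itgb7 (chromosome 15, 102215995 to 102231935, minus strand) was at 110, 107 and 101 RPKM in cKO libraries, against 126, 138 and 126 RPKM in floxed libraries. The groups did not overlap, with means of 106 ± 4.33 RPKM in cKO and 129.9 ± 6.76 RPKM in floxed libraries (SD, n = 3 each). The log2 difference was -0.29 (95% confidence interval -0.42 to -0.16, SE 0.05), with limma's adjusted p = 0.0680. With limma voom on recovered read numbers it passed (log2 difference -0.26, adjusted p = 0.00159), in a fit that called 1.67% of all tested genes lower and 4.09% in either direction, and over the alternatives the adjusted p ranged from 0.00159 to 0.196. Its nearest tested neighbours also lay lower without passing: Rarg, 3003 bases away (log2 difference -0.46, limma adjusted p = 0.0626), and Zfp740, 389 bases away (-0.18, limma adjusted p = 0.204). Farther out, Csad (-0.01) and Mfsd5 (-0.05) did not pass either. A difference shared along this stretch was not tested.

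Itgb1 (chromosome 8, 128685654 to 128733200, plus strand), the common partner of many α chains, was at 125, 126 and 127 RPKM in cKO libraries and at 116, 126 and 119 RPKM in floxed libraries. The groups overlapped, and the log2 difference of 0.07 (95% confidence interval -0.03 to 0.17) did not pass (limma, adjusted p = 0.537). Itgb2 (chromosome 10, 77530252 to 77565708, plus strand), the chain of LFA-1 and Mac-1, was at 227, 226 and 227 RPKM in cKO libraries and at 242, 237 and 236 RPKM in floxed libraries. Its groups did not overlap, but the log2 difference was -0.07 (95% confidence interval -0.15 to 0.01) and did not pass (limma, adjusted p = 0.397).

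The shares of Itgb1, Itgb7 and Itgb3 among the 4 β chains stood apart between the groups, and that of Itgb2 did so by a narrow margin. Itgb3 made up 3.07 to 3.24% of their summed RPKM in cKO and 4.88 to 5.28% in floxed libraries, and Itgb7 21.6 to 23.0% in cKO and 24.6 to 26.2% in floxed libraries. Itgb1 made up 26.2 to 26.9% in cKO and 22.8 to 23.9% in floxed libraries, and Itgb2 47.6 to 48.3% in cKO and 45.1 to 47.5% in floxed libraries. None of the 4 shares overlapped between the groups, but shares of one sum depend on each other and are not 4 separate differences. In RPKM, Itgb2 was lower in the cKO libraries and the groups of Itgb1 overlapped. Relative to Itgb1, Itgb7 was at 0.841 ± 0.0387 in cKO and 1.08 ± 0.0161 in floxed libraries (ratio of RPKM, SD, n = 3 each), so the order of Itgb1 and Itgb7 turned round between the groups. These shares and ratios are given as descriptions, with no test.

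Among the α chains, Itga4 lay higher in the cKO libraries and Itga1 lower, neither passing in limma on log2(RPKM + 1). Itga4 (chromosome 2, 79255426 to 79333123, plus strand), the α4 chain shared by β1 and β7, was at 55.5, 55.9 and 56.8 RPKM in cKO libraries, against 46.0, 48.2 and 49.0 RPKM in floxed libraries. The groups did not overlap, with means of 56.1 ± 0.659 RPKM in cKO and 47.7 ± 1.56 RPKM in floxed libraries (SD, n = 3 each). The log2 difference was 0.23 (95% confidence interval 0.13 to 0.33, SE 0.04), with limma's adjusted p = 0.0719. It passed in 3 of 14 alternatives, among them voom (log2 difference 0.27, adjusted p = 2.92e-05), which called 2.43% of all tested genes higher. Of its exon bases, 8.04% are shared with Cerkl on the opposite strand, which was at 7.84 ± 0.385 RPKM in cKO and 6.61 ± 1.16 RPKM in floxed libraries, and the strand setting of the counting was not stated in the labels.

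Itga4 and Itgb7, the genes of one homing receptor, thus lay on opposite sides of their floxed levels. The ratio of Itga4 to Itgb7 was 0.505, 0.524 and 0.560 in cKO libraries and 0.366, 0.350 and 0.388 in floxed libraries, with no overlap. The ratio of Itga4 to Itgb1 was 0.445 ± 0.00333 in cKO and 0.397 ± 0.0147 in floxed libraries (SD, n = 3 each).

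Because these partner genes lay on opposite sides, the 250 bases before the start of each are shown, from RefSeq (GRCm38.p6), 5′ to 3′ on the strand of the gene. Capitals mark a T-box core. The Itga4 stretch is chr2:79255176-79255425, plus strand, and the Itgb7 stretch is chr15:102231936-102232185, minus strand.
Itga4: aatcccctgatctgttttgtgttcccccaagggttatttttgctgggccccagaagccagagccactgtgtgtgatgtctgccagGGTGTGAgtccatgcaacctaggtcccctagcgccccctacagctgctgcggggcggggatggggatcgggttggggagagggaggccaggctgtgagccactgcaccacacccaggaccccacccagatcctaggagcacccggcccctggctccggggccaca
Itgb7: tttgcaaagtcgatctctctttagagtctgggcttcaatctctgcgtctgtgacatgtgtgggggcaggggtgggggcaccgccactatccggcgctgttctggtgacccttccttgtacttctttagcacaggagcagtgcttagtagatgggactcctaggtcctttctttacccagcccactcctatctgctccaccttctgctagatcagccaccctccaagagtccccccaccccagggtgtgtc
Of the 10 integrins, 6 had an entry in the promoter table (Itga1, Itga2, Itga4, Itgam, Itgb1 and Itgb7); Itgae, Itgal, Itgb2 and Itgb3 did not. The core letters AGGTCA of response elements for ROR receptors, searched on both strands, occurred in 0 of these 6 stretches and in 14.0% of 32851 stretches of the same length before other starts. The T-box core TCACACC, bound by factors such as T-bet and Eomes, occurred on either strand in 1 of the 6, that of Itga4, and in 3.33% of all. A match is a description of letters, and its absence in this window says nothing of binding elsewhere.

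Itga1 (chromosome 13, 114958079 to 115101964, minus strand), the CD49a chain, was at 5.85, 5.32 and 4.84 RPKM in cKO libraries, against 7.15, 7.17 and 6.48 RPKM in floxed libraries. The groups did not overlap, and the cKO mean was at 76.9% of the floxed mean. The log2 difference was -0.33 (95% confidence interval -0.54 to -0.11, SE 0.09). Limma's adjusted p was 0.181, and Itga1 passed in 0 of 14 alternatives (adjusted p from 0.0624 to 0.366). Its chromosomal neighbour Itga2 (chromosome 13, 114835916 to 114932041, minus strand), the CD49b chain, lies 26038 bases away. It was at 19.8, 20.3 and 19.8 RPKM in cKO libraries and at 18.8, 18.6 and 21.1 RPKM in floxed libraries, with overlapping groups (log2 difference 0.03, 95% confidence interval -0.12 to 0.19; limma adjusted p = 0.867). The ratio of Itga1 to Itga2, the transcripts of the markers used to tell ILC1s from NK cells, was 0.296, 0.261 and 0.244 in cKO libraries and 0.380, 0.385 and 0.307 in floxed libraries, without overlap.

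Itgae (chromosome 11, 73090583 to 73147446, plus strand), the CD103 chain, was the lowest of the 10, at 4.20, 3.94 and 3.38 RPKM in cKO libraries and at 3.87, 3.95 and 3.85 RPKM in floxed libraries. The groups overlapped, cKO replicate 3 being the lowest library, and the log2 difference was -0.02 (95% confidence interval -0.25 to 0.21; limma adjusted p = 0.955). Its direction changed with the scaling of the libraries and without cKO replicate 3.

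Itgal and Itgam, the leukocyte α chains, did not pass. Itgal (chromosome 7, 127296260 to 127335138, plus strand), the LFA-1 chain, was at 147, 151 and 147 RPKM in cKO libraries and at 153, 163 and 170.0 RPKM in floxed libraries. The groups did not overlap by a narrow margin, and the log2 difference of -0.12 (95% confidence interval -0.24 to -0.01) did not pass (limma, adjusted p = 0.320). Itgam (chromosome 7, 128062640 to 128128160, plus strand), the Mac-1 chain (CD11b) that mature NK cells gain, was at 12.1, 12.0 and 12.7 RPKM in cKO libraries and at 11.6, 11.2 and 12.0 RPKM in floxed libraries. The lowest cKO value and the highest floxed value nearly coincided, and the log2 difference was 0.08 (95% confidence interval -0.07 to 0.22; limma adjusted p = 0.637). The ratio of Itgal to Itgb2 overlapped between the groups, at 0.654 ± 0.0135 in cKO and 0.680 ± 0.0447 in floxed libraries (SD, n = 3 each).

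**Figure D2:**
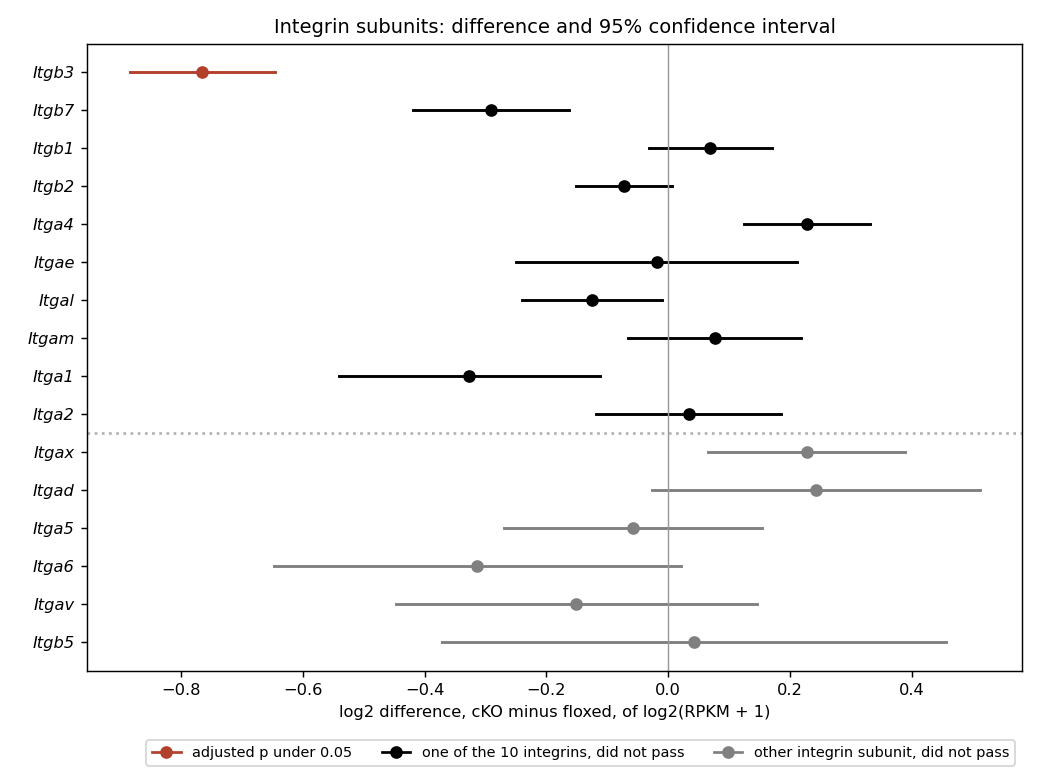
Log2 difference of log2(RPKM + 1), cKO minus floxed (x axis), with 95% confidence intervals from limma for the 10 integrins (above the dotted line) and 6 other tested integrin subunits (below it). The interval of Itgb3, in red, runs from -0.88 to -0.65, and the other 15 genes did not pass.

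Across the 10 genes, groups did not overlap in 7, with 5 lower and 2 higher in the cKO libraries, against 20.3% of all tested genes and 23.1% of the tested genes expressed at or above the lowest integrin. Of the 2 higher, Itgam was counted by a negligible margin, its lowest cKO value being 11.9887 RPKM and its highest floxed value 11.9883 RPKM. Each of these 7 reached p = 0.1 in an exact two-sided permutation test, the smallest that 20 assignments allow. At an unadjusted p under 0.05 in limma there were 5, against 14.1% of all tested genes, and voom called 1 of the 10 higher and 2 lower. The median log2 difference of the 10 was -0.05, beside -0.03 for all tested genes.

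The order of levels was Itgb2, Itgal, Itgb1, Itgb7, Itga4, Itga2, Itgb3, Itgam, Itga1 and Itgae from high to low in cKO libraries. In floxed libraries Itgb7 stood above Itgb1, and Itgb3 above Itga2, with the rest in the same order. Neighbours in either order had library values that did not overlap, although the highest Itgb1 and the lowest Itgb7 value of the floxed libraries were both 126 RPKM. By mean RPKM over all libraries, Itgb2 stood at or above 98.3% of tested genes, and Itgae at or above 33.3%.

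**Figure D3:**
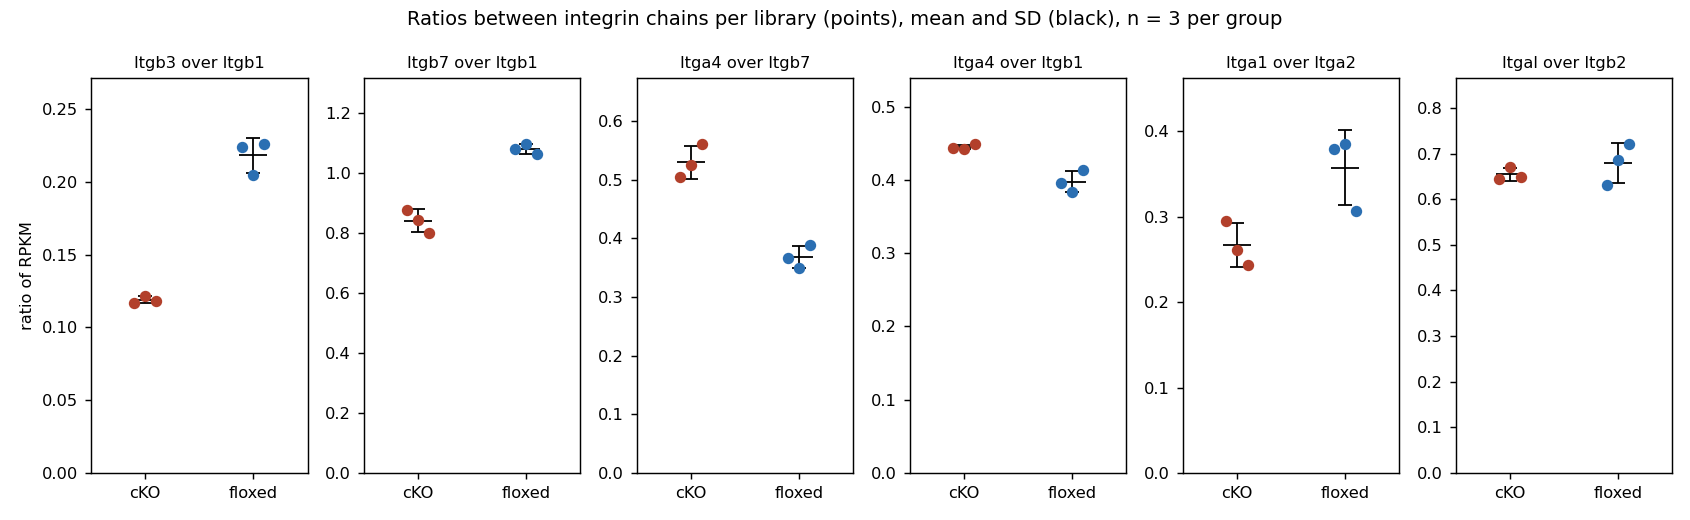
Ratios of RPKM between integrin chains (y axes, from 0) in each of the 3 cKO and 3 floxed libraries (points), with mean and SD in black. The ratio of Itga4 to Itgb7 is 0.505 to 0.560 in cKO and 0.350 to 0.388 in floxed libraries, that of Itgb3 to Itgb1 is 0.117 to 0.121 in cKO and 0.204 to 0.226 in floxed libraries, and that of Itgal to Itgb2 overlaps between the groups.

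Of 16 other integrin subunits, 13 had a row in the table and 6 were tested, and limma called 0 of them (1 was higher and 0 lower at unadjusted p below 0.05, and voom called 1, as higher). Itgax (CD11c, a β2 partner that mouse NK cells also carry) was the most abundant, at 68.2, 67.4 and 61.8 RPKM in cKO libraries and at 53.0, 60.8 and 54.5 RPKM in floxed libraries. Its groups did not overlap (log2 difference 0.23, limma adjusted p = 0.206; voom adjusted p = 0.00361). Itgam, Itgax and Itgad lie side by side on chromosome 7 and are paralogs, and Itgad, which shares 12.4% of its exon bases with other genes, was at 4.41 ± 0.660 RPKM in cKO and 3.55 ± 0.113 RPKM in floxed libraries (limma adjusted p = 0.405). Itga6, a laminin receptor chain, was at 1.19 ± 0.212 RPKM in cKO and 1.72 ± 0.235 RPKM in floxed libraries (limma adjusted p = 0.384). Itga5, the α chain of the fibronectin receptor, was at 6.07 ± 0.572 RPKM in cKO and 6.34 ± 0.310 RPKM in floxed libraries, and Itgb5, another partner of αv, at 1.57 ± 0.388 RPKM in cKO and 1.49 ± 0.349 RPKM in floxed libraries. The 7 subunits under the filter averaged at most 1.12 RPKM in either group, and among them the collagen receptor gene Itga10 was at 0.524, 0.457 and 0.454 RPKM in cKO libraries and at 0.258, 0.258 and 0.241 RPKM in floxed libraries. Itga10 was named after its values were seen, was not tested, and rested on 50 to 61 reads in cKO and 27 to 29 reads in floxed libraries. The 4 β2 partners together nearly matched Itgb2 in RPKM, their sum being 1.02 ± 0.0204 of Itgb2 in cKO and 0.979 ± 0.0571 in floxed libraries (SD, n = 3 each).

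Genes of the machinery that switches integrins on did not pass. Limma called 0 of 19 integrin activation genes (at unadjusted p below 0.05, 1 was higher and 3 were lower), voom called 1, as higher, and the median log2 difference was -0.02. Rassf5 (RAPL, which links Rap1 to LFA-1) was at 123 ± 5.65 RPKM in cKO and 125 ± 2.67 RPKM in floxed libraries. Tln1 (talin, which binds the β tail) was at 123 ± 3.99 RPKM in cKO and 121 ± 4.80 RPKM in floxed libraries, and Fermt3 (kindlin-3, its partner on the β tail) at 123 ± 4.19 RPKM in cKO and 119.6 ± 2.37 RPKM in floxed libraries. The gene that voom called was Cyth1 (cytohesin-1, a β2 tail binder), at 65.4 ± 3.74 RPKM in cKO and 58.0 ± 3.32 RPKM in floxed libraries (limma adjusted p = 0.302), which was named after its value was seen.

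Of 17 tested genes of the adhesion complex and its signalling, 1 rose, 0 fell and 16 did not pass (median log2 difference -0.01), against 0.652% of all tested genes that rose. At unadjusted p below 0.05 in limma, 2 were higher and 1 lower. Voom called 2, Fyn and Syk, both as higher. Syk, named after its value was seen, was at 26.2 ± 0.953 RPKM in cKO and 23.1 ± 0.444 RPKM in floxed libraries (limma adjusted p = 0.191, voom adjusted p = 0.0122). Fyn, a Src-family kinase that acts downstream of integrins and of NK receptors, was at 179, 179 and 186 RPKM in cKO libraries and at 138, 142 and 143 RPKM in floxed libraries. Its groups lay wide apart (log2 difference 0.36, SE 0.04, limma adjusted p = 0.0106), and the call was lost in 5 of 14 alternatives, namely the replicate block and the fits without cKO replicate 1, 2 or 3 or floxed replicate 3 (adjusted p from 5.02e-08 to 0.0595 over all 14). Among those that did not pass, Vasp, an actin regulator at adhesions, was at 123 ± 7.22 RPKM in cKO and 114 ± 8.58 RPKM in floxed libraries, and Vav1, an exchange factor for Rac, at 66.2 ± 1.32 RPKM in cKO and 65.7 ± 2.62 RPKM in floxed libraries.

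Few integrin ligand genes were measured at 1 RPKM or more. Of 15 ligand genes, 14 had a row and 4 were tested, of which limma and voom each called 0 (at unadjusted p below 0.05, 2 were higher and 0 lower in limma). Icam1, the LFA-1 and Mac-1 ligand, was at 54.0 ± 0.571 RPKM in cKO and 49.4 ± 0.566 RPKM in floxed libraries (limma adjusted p = 0.227), and Icam2 at 27.3 ± 3.80 RPKM in cKO and 26.6 ± 3.33 RPKM in floxed libraries. Cdh1, the E-cadherin gene whose product binds αE, was at 1.49 ± 0.0714 RPKM in cKO and 0.946 ± 0.117 RPKM in floxed libraries (limma adjusted p = 0.288).

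TGF-β signalling induces αE and α1 in tissue-resident lymphocytes, and a list of its genes with regulators of residency was read beside them. Of 14 tested genes 1 rose, 0 fell and 13 did not pass (median log2 difference 0.03), against 0.652% of all tested genes that rose. At unadjusted p below 0.05, 4 were higher and 2 lower, and voom called 2, Klf2 and Smad7, both as higher. Klf2, a factor that promotes recirculation and also an early response gene, was at 68.9, 74.2 and 79.6 RPKM in cKO libraries and at 51.0, 41.4 and 41.7 RPKM in floxed libraries (log2 difference 0.72, SE 0.10, limma adjusted p = 0.0230). Its call was lost in 7 of 14 alternatives, among them the fits without cKO replicate 1, 2 or 3 or floxed replicate 2 or 3 (adjusted p from 3.13e-07 to 0.0966 over all 14). The inhibitory factor gene Smad7, named after its value was seen, was at 23.2 ± 1.64 RPKM in cKO and 17.4 ± 0.587 RPKM in floxed libraries and just missed the threshold (limma adjusted p = 0.0533). The receptor gene Tgfbr2 and the mediator gene Smad3 did not pass. Tgfbr2 was at 23.6 ± 0.636 RPKM in cKO and 22.3 ± 0.549 RPKM in floxed libraries, and Smad3 at 29.3 ± 1.51 RPKM in cKO and 30.3 ± 1.06 RPKM in floxed libraries.

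**Figure D4:**
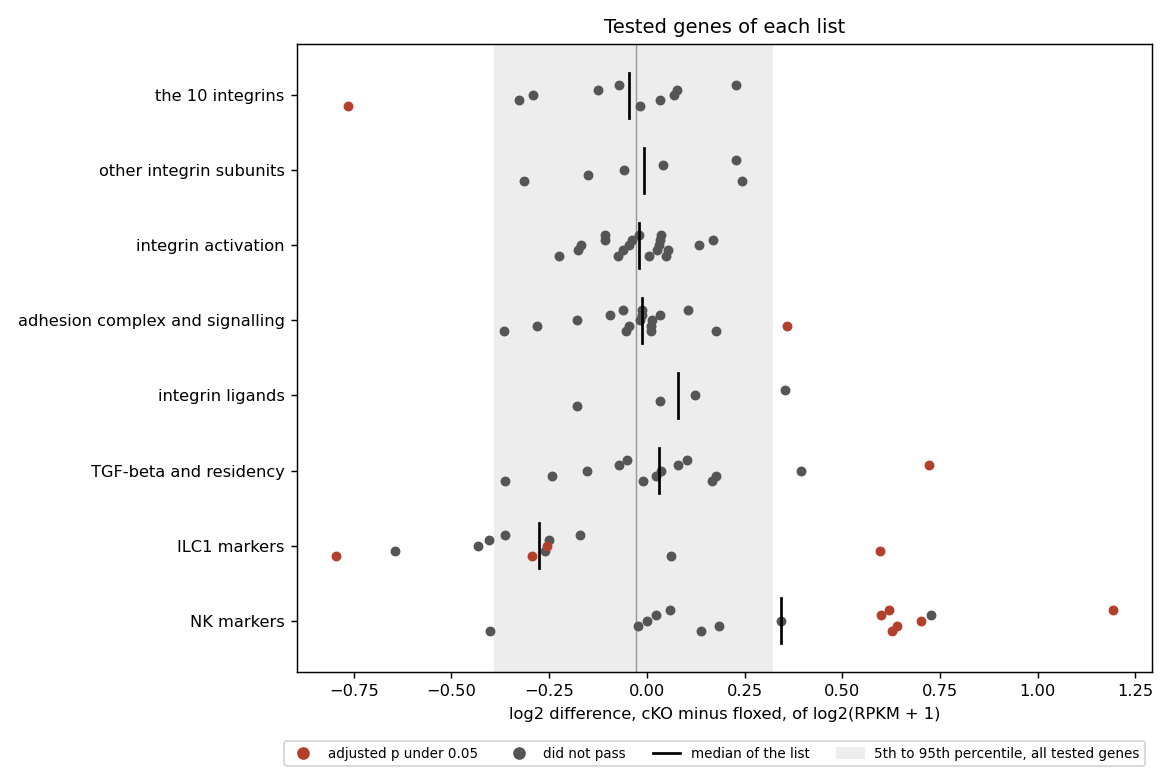
Log2 difference of log2(RPKM + 1), cKO minus floxed (x axis), of each tested gene (points, red where the adjusted p was under 0.05) in 8 gene lists, with the median of each list as a black bar and the 5th to 95th percentile of all tested genes, -0.39 to 0.32, shaded and their median, -0.03, as a grey line. Of the 10 integrins, Itgb3 is the single one outside this range, and the medians of the integrin, activation and adhesion lists lie close to 0.

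The tested genes whose levels followed Itgb3 most closely over the 6 libraries, by Pearson's r of log2(RPKM + 1), were Prr13, Gm26740 and Gm15441, with r of 0.998, 0.998 and 0.996 among 12535 genes with a mean of at least 1 RPKM. Each of the 3 was lower in the cKO libraries, for example Prr13 at 72.9 ± 0.915 RPKM in cKO and 88.0 ± 0.487 RPKM in floxed libraries (SD, n = 3 each), so the likeness follows the 2 groups and is given as a description.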

How the data were processed

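The 6 RNA-seq libraries, 3 cKO and 3 floxed, were made with a stranded mRNA kit from 2 µg of TRIzol-extracted RNA each, per the labels' protocols. The submitters' processing notes name mm10 and the tools STAR 2.5.3a, Subread 1.5.1, featureCounts and edgeR 3.12.1, without their roles. The authors deposited RPKM per gene with exon coordinates and, as another value, the gene length in bases, per the file headers. RPKM times length gave whole reads, within 0.001 reads, for 100% of values in each library, which gave the depth.

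From these values, log2(RPKM + 1) was tested with limma 3.58.1 in R 4.3.3 (lmFit, eBayes with trend, no covariate) on genes reaching 1 RPKM or more in 3 or more libraries, with Benjamini-Hochberg adjustment over all 12731. The step was tested on simulated data. Alternatives were a pseudocount of 0.1, no filter, a filter of 5 RPKM, median-centring, quantile normalization, robust empirical Bayes, limma voom with TMM factors on recovered reads, each library left out, and a replicate block. The members and lists were chosen with earlier results of these data known. All 10 members are named; in other lists at most 4 passing genes by p and 3 others by level are named, and exceptions are marked, or are other integrin subunits or genes chosen for their pairing with a member. Motif letters were chosen after the gene values were seen.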

Additional observations from a re-analysis of the deposited data

How the results depend on the processing

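Over 139 refits of single integrins, 130 kept their direction and their side of the threshold; Itgae was under the 5 RPKM filter and could not be fitted there. Itgb3 passed in all 14 alternatives. In 5 refits a gene passed that had not: Itga4 with a 5 RPKM filter, median-centring and voom, and Itgb7 with the 5 RPKM filter and voom. Thus 3 integrins were called with the 5 RPKM filter, 2 with median-centring and 3 with voom, and 1 in each fit without 1 library. The log2 difference of Itgae turned positive in 4 refits, at 0.025 with median-centring, 0.024 with quantile normalization and 0.0076 with voom, and lay between -0.072 and 0.051 with 1 library left out, positive without cKO replicate 3; the cause was not tested. Of all genes, 168 were called (83 higher, 85 lower), against 80 (44 and 36) without a filter and 521 (309 and 212) with voom. Leaving out 1 library called 60 to 90 (33 to 51 higher, 27 to 39 lower), with fewer samples in the fit. The share of calls that were higher was 49.4%, against 63.6% with median-centring and 59.3% with voom. With the replicate block 60 genes (37 higher, 23 lower) and 17 genes of the companion lists were called, Itgb3 among the integrins (adjusted p = 0.0346). Correlations of same-numbered deviations were -0.032, 0.013 and 0.044, and those of differently numbered ones ran from -0.098 to 0.086. With 3 libraries per group these values cannot decide whether same-numbered libraries were paired, and the titles give only a number. Companion lists held 30 called genes, and 15 to 23 without 1 library. Itgae, at 342 to 432 reads per library, was the integrin measured with the fewest reads.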
